A study of Mus musculus with 22 samples.

Results

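To follow RNA polymerase II (PolII) occupancy from early-G1 to mid-G1 in cells that had left mitosis without CTCF, the 5 PolII peak lists of auxin-treated cells at these stages were compared. The 2 early-G1 lists held 102195 and 100031 peaks and the 3 mid-G1 lists 99936, 107666 and 74672. All 484500 peaks were taken, and those overlapping by 1 bp or more were merged into 147402 regions, of which 27692 were detected in all 5 lists. Merging the 18 lists of the whole series gave 169903 regions. A region was scored in each list by its detection, by the bases it covered and by the rank of its highest fold enrichment, with rank 1 for the strongest region of that list.

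The cells were G1E-ER4, a mouse erythroid precursor line in which GATA1 was not induced. In all groups both Ctcf alleles carried an auxin-inducible degron fused to mCherry (CTCF-AID-mCherry), and the ubiquitin ligase adaptor OsTiR was expressed from a MigR1 retrovirus together with IRES-GFP. Cells were arrested in prometaphase with 200 ng/ml nocodazole for 7 to 8.5 h, and early-G1 and mid-G1 cells were collected 60 and 120 min after release. The groups compared received auxin during the last part of the arrest and throughout the release, and were sorted by DNA content and for loss of mCherry. The matched controls (2 early-G1 and 3 mid-G1 libraries) carried the same alleles and adaptor and received the same nocodazole, with no auxin. All samples were fixed with formaldehyde, and the replicates were separate biological preparations of 1 engineered line.

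PolII initiates at promoters, commonly pauses shortly after the transcription start site (TSS), then elongates through the gene body and past the polyadenylation site before it is released. Most PolII leaves chromosomes in mitosis and is loaded again as cells enter G1, so that the first elongating polymerases move along genes while later ones start behind them. CTCF binds DNA at insulator elements and stops loop extrusion by cohesin. The lists report occupancy as peaks and not transcript levels, and a signal shared by fewer cells cannot be told apart from a weaker signal in each cell.

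The TSS of 9 of 9 erythroid precursor markers (Klf1, Tal1, Kit, Gata2, Epor, Gfi1b, Nfe2, Lyl1 and Tfrc) lay under a peak in all 5 lists. Of 21 markers of T cells, B cells, macrophages, hepatocytes, neurons and muscle, 20 had no TSS peak in any list, and 1, the macrophage marker Cd68, had one in all 5. Background levels implied by the lists corresponded to 7.53 and 7.92 reads per kb in early-G1 and to 8.38, 8.56 and 9.27 in mid-G1. These are levels that the peak caller set, not read totals, and they do not order the libraries by depth. Mid-G1 replicate 3 had the fewest peaks. Each stage had 1 input, and its lists were called against it, so the stage and its input cannot be told apart.

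The promoters below belong to genes of the promoter results, with 3 whose TSS region ranked higher in mid-G1 and 4 whose TSS region ranked lower. The region of Cdc6 extends over the gene body, so its change cannot be placed at the promoter printed. Id1 encodes an inhibitor of basic helix-loop-helix transcription factors, and Rps10 and Rplp0 ribosomal proteins. Tfrc encodes the transferrin receptor that takes up iron, Clk1 a kinase of splicing factors, Cdc6 a loader of the replicative helicase, and Gins1 a subunit of the GINS complex of the replication fork. Each sequence is the 250 bases before the annotated TSS, read 5′ to 3′ on the strand of the gene from the mouse genome assembly mm9 (NCBIM37). Capitals mark matches on either strand to letters searched for: TATAAA as a TATA box, CCAAT as a CCAAT box, GGGCGG as a GC box, GCGGGAA as an E2F site, CACGTG as an E-box, CCGGAAG as an ETS site and TGACG as a half-site for CREB family factors.
Id1: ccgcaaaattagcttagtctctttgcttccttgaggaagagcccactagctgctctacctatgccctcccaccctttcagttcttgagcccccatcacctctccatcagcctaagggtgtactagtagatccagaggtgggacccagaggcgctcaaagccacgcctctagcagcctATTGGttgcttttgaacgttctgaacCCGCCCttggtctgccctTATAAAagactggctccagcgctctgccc
Rps10: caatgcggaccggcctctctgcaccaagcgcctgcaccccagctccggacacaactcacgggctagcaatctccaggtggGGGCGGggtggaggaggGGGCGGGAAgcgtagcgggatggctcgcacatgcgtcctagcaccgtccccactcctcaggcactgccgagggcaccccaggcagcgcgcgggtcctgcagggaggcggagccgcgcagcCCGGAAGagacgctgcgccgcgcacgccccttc
Rplp0: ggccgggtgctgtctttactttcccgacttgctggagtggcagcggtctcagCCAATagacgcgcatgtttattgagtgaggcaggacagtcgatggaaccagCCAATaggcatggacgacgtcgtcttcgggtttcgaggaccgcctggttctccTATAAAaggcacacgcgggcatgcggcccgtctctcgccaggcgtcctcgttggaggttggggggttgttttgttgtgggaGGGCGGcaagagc
Tfrc: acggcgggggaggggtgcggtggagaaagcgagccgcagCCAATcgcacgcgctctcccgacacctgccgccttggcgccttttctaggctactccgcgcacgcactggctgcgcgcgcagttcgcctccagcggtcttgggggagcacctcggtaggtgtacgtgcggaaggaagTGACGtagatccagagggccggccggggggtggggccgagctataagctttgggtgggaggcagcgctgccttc
Clk1: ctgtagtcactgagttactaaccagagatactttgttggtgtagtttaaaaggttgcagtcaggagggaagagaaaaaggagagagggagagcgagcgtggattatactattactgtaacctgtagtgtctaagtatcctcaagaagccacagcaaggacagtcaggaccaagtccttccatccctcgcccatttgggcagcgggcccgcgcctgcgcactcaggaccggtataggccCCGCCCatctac
Cdc6: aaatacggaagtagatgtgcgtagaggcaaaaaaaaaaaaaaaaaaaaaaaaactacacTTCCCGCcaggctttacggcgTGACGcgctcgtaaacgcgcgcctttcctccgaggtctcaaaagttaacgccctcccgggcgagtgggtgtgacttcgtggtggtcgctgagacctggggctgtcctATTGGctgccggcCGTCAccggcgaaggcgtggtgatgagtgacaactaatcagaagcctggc
Gins1: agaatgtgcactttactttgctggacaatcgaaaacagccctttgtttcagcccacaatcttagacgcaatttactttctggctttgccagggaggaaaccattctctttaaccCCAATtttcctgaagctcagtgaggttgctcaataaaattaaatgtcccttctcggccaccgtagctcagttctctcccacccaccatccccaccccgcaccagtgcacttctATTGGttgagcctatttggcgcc
These stretches lie at chr2:152561737-152561986 (plus strand) for Id1, chr17:27772186-27772435 (minus strand) for Rps10, chr5:116009337-116009586 (plus strand) for Rplp0, chr16:32608819-32609068 (plus strand) for Tfrc, chr1:58480911-58481160 (minus strand) for Clk1, chr11:98768865-98769114 (plus strand) for Cdc6 and chr2:150735080-150735329 (plus strand) for Gins1. A TATA box began 29 bases before the TSS of Id1 and 94 bases before that of Rplp0, and an E2F site began 191 bases before the TSS of Cdc6. In Rps10 an E2F site overlapped a GC box, beginning 151 and 153 bases before the TSS.

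Among the 8877 protein-coding genes with a TSS in a region present in all 5 lists, 63.1% of these windows held a GC box, 36.6% a CCAAT box, 18.6% an ETS site, 7.90% an E2F site and 5.31% a TATA box. In the 149 genes whose TSS region ranked lower in mid-G1, 45.0% held a CCAAT box and 16.8% an E2F site. In the 114 genes whose TSS region ranked higher, these shares were 42.1% and 7.89%, and 9.65% held a TATA box. The windows had a median GC content of 57.6% in the genes that ranked higher, 62.4% in those that ranked lower and 60.8% in all. These are counts of letters and do not show that a factor was bound.

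The comparison asks how PolII occupancy shifts between these stages of G1 without CTCF, and the first measure was a region's place in its list. It was taken as the change in −log2 rank, mid-G1 minus early-G1, on which 1.00 is a 2-fold smaller rank number, and a positive value a stronger place in the list. Of 27692 regions tested with limma, 312 ranked higher in mid-G1 (1.13%) and 185 ranked lower (0.668%) at an adjusted p under 0.05, with changes from −3.56 to 6.80. The median change over all regions was 0.01. In all 497 called regions the ranks of the 2 groups did not overlap, and in 37.8% of all tested regions they did not overlap either. The count of calls depended on having all 5 libraries: it was 2 higher and 0 lower without early-G1 replicate 1, 0 and 0 without early-G1 replicate 2 (2201 and 1568 at an unadjusted p under 0.05), 3 and 0 without mid-G1 replicate 1, 53 and 33 without mid-G1 replicate 2, and 22 and 7 without mid-G1 replicate 3. The balance of higher to lower calls depended on the value ranked: it was 152 to 45 by summit pileup, 111 to 37 by −log10 p, 475 to 481 when only regions in all 5 lists were ranked, and 0 to 0 on a normal score of the rank (1090 and 1538 at an unadjusted p under 0.05).

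Regions that ranked lower in mid-G1 were mostly promoters high in the lists. Of the 185, 125 (67.6%) held a protein-coding TSS, against 30.3% of the regions tested, and their median mean rank was 3078, against 16409 in all. Regions that ranked higher had a median mean rank of 23715. Ranks were taken within lists of unequal length, mid-G1 replicate 3 being the shortest, and the part of list length in this contrast was not tested. Of these 312 regions, 99 (31.7%) held a protein-coding TSS, 117 (37.5%) lay in gene bodies and 48 (15.4%) were intergenic, against 48.8% and 7.77% for the latter classes among the regions tested. The lower regions included 7 intergenic ones.

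Named promoters of both directions were chosen among called regions whose ranks did not overlap between the groups, so this separation follows from the choice. The 12 promoters with the largest rise included Fasn, Acot8, Plek and Id1. At Fasn, which encodes fatty acid synthase, the region chr11:120683203-120687669 had a fold enrichment of 29.4 and 25.4 in early-G1 and 61.1, 61.3 and 63.02 in mid-G1. Its rank moved from 3365.5 and 4270.5 to 260, 316.5 and 205, a change of 3.89 ± 0.33 (SE, n = 2 and 3, limma adjusted p = 0.0053). Late-G1 lists of the treated cells placed Fasn at 277.5 and 226. The bidirectional region of Acot8, a peroxisomal thioesterase, and Zswim3 (chr2:164629921-164631717) went from 29.05 and 26.6 to 66.4, 62.8 and 48.998 (change 3.66 ± 0.36, adjusted p = 0.0071). Plek, which encodes the platelet and leukocyte protein pleckstrin (chr11:16907056-16909053), went from 27.95 and 25.5 to 58.9, 61.3 and 43.7 (change 3.39 ± 0.39, adjusted p = 0.0093). The mid-G1 ranks were 207, 286.5 and 405.5 for Acot8 and 283.5, 316.5 and 609.5 for Plek.

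Id1 (chr2:152561691-152566735) started from a higher place. Its fold enrichment was 45.9 and 49.2 in early-G1 and 92.1, 94.7 and 79.2 in mid-G1, and its rank moved from 850 and 558 to 68, 56 and 95.5 (change 3.27 ± 0.36, adjusted p = 0.0089). Gpr55, a G protein-coupled receptor gene (chr1:87856896-87857963), was the weakest of the 12 in early-G1, at ranks of 60207 and 52104.5 with fold enrichments of 4.76 and 4.96, and stood at 5369, 8110 and 7063 with 21.01, 16.5 and 15.8 in mid-G1 (change 3.05 ± 0.33, adjusted p = 0.0081). Prometaphase lists of the treated cells, which held 3539 and 2414 peaks, had no peak there.

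The same set held Rps10 (chr17:27766169-27772802), which went from 25.5 and 33.2 to 52.5, 59.2 and 50.02 (change 3.08 ± 0.36, adjusted p = 0.0095). It also held the region of Rpl12, Lrsam1 and the small nucleolar RNA Snora65 (chr2:32816856-32822003), which went from 44.6 and 33.5 to 58.6, 65.3 and 71.3 (change 2.77 ± 0.46, adjusted p = 0.027). The summit of the latter region lay outside genes, 4148 bp upstream of the nearest protein-coding TSS, that of Lrsam1. Its change can therefore not be placed at a promoter. The repressor and ubiquitin ligase gene E4f1 (chr17:24591161-24593133) went from 26.5 and 22.4 to 46.7, 52.8 and 46.3 (change 3.11 ± 0.31, adjusted p = 0.0071). Pdss1, which makes the side chain of ubiquinone (chr2:22750302-22751850), went from 23.3 and 23.2 to 38.8, 49.97 and 46.1 (change 2.80 ± 0.39, adjusted p = 0.017). The promoters of Ankmy2 and Bzw2, and of 3110040N11Rik, changed by 2.91 and 2.87.

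The linker histone gene Hist1h1e and Hist1h2be shared 1 region (chr13:23710376-23715278), whose fold enrichment went from 74.5 and 66.8 to 119, 116 and 94.5 (change 3.24 ± 0.48, adjusted p = 0.019), but ranked by summit pileup, which is not divided by the input, the same region changed by −1.10 (adjusted p = 0.16). Histone genes have near-identical copies, so reads of this region are uncertain.

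**Figure D1:**
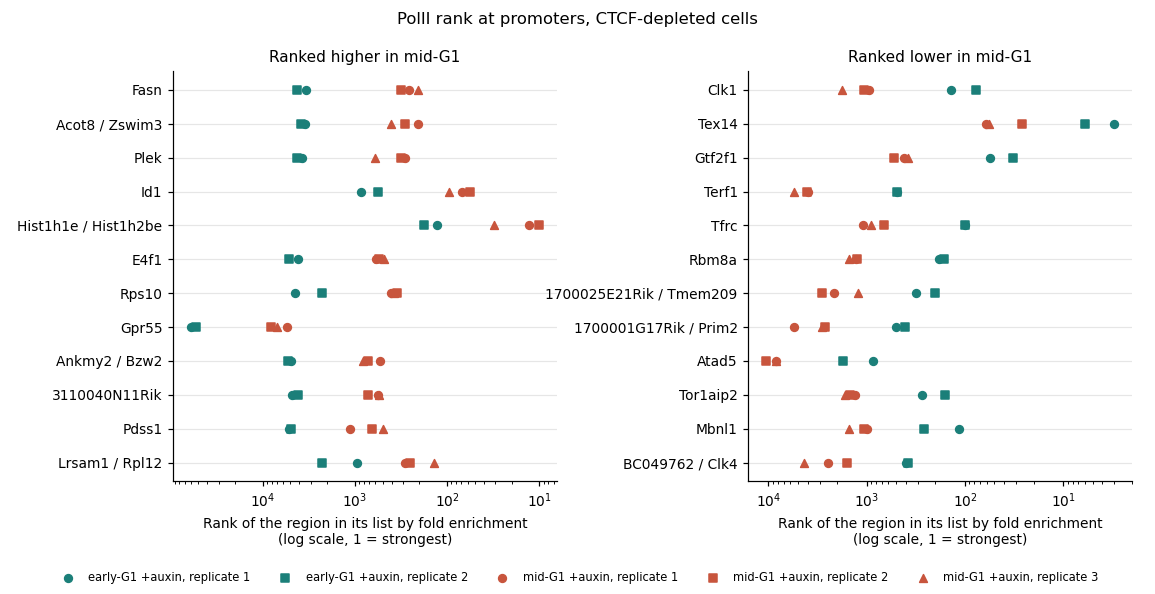
Ranks of the 12 promoters with the largest rise and the 12 with the largest fall, 1 row per region and 1 point per list, on a log axis with rank 1, the strongest, to the right. Green points are the 2 early-G1 lists and red points the 3 mid-G1 lists, all with auxin. Rows were chosen without overlap of the groups. Gpr55 starts at 60207 and 52104.5 while Tex14 with its U1 gene starts at 3 and 6.

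The 12 promoters with the largest fall included the kinase genes Clk1 and Clk4, Tfrc and the replication genes Prim2 and Atad5. Clk1 (chr1:58478406-58481550) had fold enrichments of 72.8 and 81.4 in early-G1 and 41.2, 44.2 and 31.7 in mid-G1. Its rank moved from 138 and 78 to 957, 1062 and 1804, a change of −3.56 ± 0.40 (SE, n = 2 and 3, limma adjusted p = 0.0091). Clk4, another kinase of that family, shares its region with BC049762 (chr11:51076049-51077659) and went from 56.2 and 54.5 to 29.9, 39.3 and 22.1 (change −2.73 ± 0.42, adjusted p = 0.022).

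Gtf2f1, which encodes a subunit of the general transcription factor TFIIF (chr17:57149939-57151805), went from 89.5 and 93.5 to 52.2, 52.97 and 49.8 (change −3.36 ± 0.35, adjusted p = 0.0081). Rbm8a, a core protein of the exon junction complex (chr3:96432817-96435036), went from 67.8 and 68.7 to 37.4, 42.2 and 33.5 (change −2.97 ± 0.30, adjusted p = 0.0072). Mbnl1, a splicing regulator (chr3:60275969-60277455), went from 76.6 and 60.4 to 40.8, 43.9 and 33.5 (change −2.76 ± 0.41, adjusted p = 0.019). The telomere-binding protein gene Terf1 (chr1:15795291-15796939) had ranks of 491 and 494 in early-G1 and 3926, 4044 and 5514.5 in mid-G1 (change −3.17 ± 0.32, adjusted p = 0.0071).

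Tfrc (chr16:32607906-32612930), the only erythroid gene of this set, had fold enrichments of 78.4 and 76.7 in early-G1 and 39.3, 49.7 and 39.02 in mid-G1, and its rank moved from 100.5 and 100 to 1092, 666 and 894 (change −3.11 ± 0.33, adjusted p = 0.0081). Prim2, a subunit of DNA primase, shares its region with 1700001G17Rik (chr1:33726017-33727805) and went from 52.5 and 53.6 to 20.5, 33.0 and 26.8 (change −2.93 ± 0.39, adjusted p = 0.015). Atad5, which unloads the sliding clamp from DNA (chr11:79902224-79903887), went from 45.6 and 36.5 to 14.9, 12.9 and 13.4 (change −2.87 ± 0.37, adjusted p = 0.014). Tmem209 with 1700025E21Rik, and Tor1aip2, changed by −2.97 and −2.83.

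The 12 lower promoters were chosen partly for weak mid-G1 ranks and the 12 higher ones partly for weak early-G1 ranks, so the late-G1 ranks are given without a test. In late-G1 lists of the treated cells, both ranks were better than every mid-G1 rank at 12 of 12, against 31.1% of all tested regions, and at 10 of 12 they were behind every early-G1 rank, against 21.5%. Tfrc stood at 97.5 and 123.5 in late-G1, Clk1 at 251 and 187 and Terf1 at 1882.5 and 1955.5. Of the 12 higher promoters, 12 had late-G1 ranks better than every early-G1 rank, against 39.3% of all tested regions. In prometaphase of treated cells, whose lists held 3539 and 2414 peaks, some promoters of both sets had a peak in both lists. The share of all tested regions with such a peak was not computed.

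Regions without an annotated TSS also changed. Among them, the largest rise was at chr3:96132889-96133959, 34980 bp upstream of Fcgr1, where fold enrichment went from 28.8 and 25.6 to 89.9, 66.9 and 70.5 (change 4.85 ± 0.46, adjusted p = 0.0071). A region of chr7:20462024-20463378, inside Ceacam19 and 10582 bp after its TSS, went from 25.9 and 25.6 to 79.2, 68.5 and 64.99 (change 4.66 ± 0.35, adjusted p = 0.0025). A region 20546 bp downstream of the TSS of Serpinb9d (chr13:33304789-33306255) went from 3.75 and 3.41 to 20.7, 22.6 and 13.4 (change 3.51 ± 0.33, adjusted p = 0.0071). The fourth, chr3:96298687-96301028, 30054 bp upstream of Hfe2, changed by 3.25 ± 0.41, adjusted p = 0.013. In the other direction, a region 813 bp downstream of the Hist1h2bn TSS (chr13:21846389-21848052) went from 87.1 and 85.3 to 55.7, 53.9 and 37.04 (change −3.13 ± 0.46, adjusted p = 0.019). A region near Phf2 (chr13:48970287-48975085) changed by −2.42. An intronic region of the antiviral gene Zc3hav1 (chr6:38295750-38296316) changed by −2.47 ± 0.46, adjusted p = 0.035, but by 0.09 once peaks were joined across gaps of up to 1 kb.

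To describe the changes by process, 15 gene lists were read at the region that holds each member's TSS. Such a region can extend into the gene or to other genes, and the place of its highest value was not examined for list members. The lists and their members were chosen with earlier results of these data known, so the counts per list are descriptive. Over the 8877 protein-coding genes with such a region, 1.28% were called higher and 1.68% lower, and the median change was −0.02.

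Of 24 genes that license and start DNA replication, 21 were tested, of which 7 ranked lower and 0 higher (16 at an unadjusted p under 0.05, which 19.4% of all tested regions also had). Changes were negative in 20 of 21, with a median of −1.07. The called members were the helicase loader Cdc6, the helicase activators Cdc45 and Gins1, the helicase subunits Mcm3 and Mcm7, the origin binder Orc1 and the licensing inhibitor Gmnn. Gins1 (chr2:150734370-150736098) had fold enrichments of 37.6 and 40.2 in early-G1 and 13.4, 18.6 and 9.20 in mid-G1 (change −2.69 ± 0.35, adjusted p = 0.014). Cdc45, in a region shared with Ufd1l (chr16:18810974-18813130), went from 56.2 and 42.2 to 27.8, 29.4 and 24.8 (change −2.39 ± 0.42, adjusted p = 0.03). Cdc6, in a region shared with Rara (chr11:98765612-98789969), went from 70.9 and 63.7 to 37.8, 51.3 and 37.4 (change −2.36 ± 0.39, adjusted p = 0.027). Peaks covered 87.0% to 100% of the Cdc6 body, over which this region extends. Its change can therefore not be placed at the Cdc6 promoter. In each of these 3 regions the weakest early-G1 list exceeded the strongest mid-G1 list.

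Gmnn went from 38.5 and 42.3 to 21.1, 28.2 and 20.9 (change −1.87 ± 0.34, adjusted p = 0.034). Orc1, in a region shared with Prpf38a, went from 46.9 and 46.1 to 30.5, 29.8 and 29.1 (change −1.78 ± 0.33, adjusted p = 0.034). Mcm3 and Mcm7 changed by −1.67 ± 0.34, adjusted p = 0.045 and by −1.65 ± 0.32, adjusted p = 0.038, and the region of Mcm7 also holds the TSS of Ap4m1. The region of Mcm3 (chr1:20785923-20810846) extends over the gene body, so its change cannot be placed at the promoter either. Among members that did not pass, and named after their values were seen, Cdc7 changed by −1.80 ± 0.40, adjusted p = 0.057 and Mcm10 by −1.44 ± 0.36, adjusted p = 0.074. Orc5, which with Cdc6 was the best placed of this list, changed by −0.77 ± 0.30, adjusted p = 0.2. The annotated TSSs of Mcm4, Gins2 and Pcna lay under no peak in any of the 5 lists. A GCGGGAA match lay in 8 of the 21 promoter windows (38.1%), against 7.90% of all, and a CCAAT box in 14 (66.7%), against 36.6% of all. Of the 31 mitotic machinery genes, with 1 called lower, 24 (77.4%) held a CCAAT box and 0 a GCGGGAA match. The number called lower was between 0 and 2 when a library was left out, 0 with the replicate block, 2 when ranked by −log10 p, 4 by summit pileup and 1 on log2 fold enrichment. The list's median was also negative by −log10 p, by summit pileup and on log2 fold enrichment.

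Genes of ribosomal proteins went both ways. Of 76 members of the cytosolic ribosome, 70 were tested, 8 were higher and 3 lower, with a median change of 0.26. Rplp0 (chr5:116009067-116013453) went from 53.5 and 51.9 to 77.9, 83.01 and 75.2 (change 2.05 ± 0.31, adjusted p = 0.02). Rpl23, in a region shared with 1700001P01Rik and Snora21, went from 43.3 and 46.9 to 67.5, 79.4 and 72.9 (change 2.59 ± 0.36, adjusted p = 0.016). Rpl23a, in a region with Nek8, Tlcd1 and several small nucleolar RNA genes, changed by 2.57 ± 0.47, adjusted p = 0.035. Rps9, Rps27 and Rpl32 changed by 1.69, 1.65 and 1.72, and Rps10 and Rpl12 are given above. Rpl12 is counted here although the summit of its region lay away from any protein-coding TSS. The 3 lower members were Rps12, which went from 94.3 and 94.3 to 70.9, 72.9 and 72.04 (change −2.20 ± 0.32, adjusted p = 0.019), Rpl11, with 60.2 and 61.2 and then 37.4, 38.7 and 35.8 (change −2.33 ± 0.32, adjusted p = 0.016), and Rpl21 (change −1.91 ± 0.36, adjusted p = 0.036). The best placed member that did not pass, Rps2, changed by 1.15 ± 0.40, adjusted p = 0.16. Reads of ribosomal protein genes may be shared with processed pseudogenes. Ranked by summit pileup or by −log10 p, 0 members were called in either direction, and their medians were 0.21 and 0.24.

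Small nuclear RNA genes included the largest single change. Of 1422 annotated genes, 52 had a TSS in a region present in all 5 lists, and 4 were higher and 3 lower. AC120136.3, annotated as a small nuclear RNA gene (chr1:72300848-72304792), had fold enrichments of 54.8 and 46.9 in early-G1 and 125, 125 and 113 in mid-G1. Its rank moved from 426 and 711 to 5, 3 and 8, a change of 6.80 ± 0.45, adjusted p = 0.0014. Of the U5 genes of the spliceosome, those at chr4:116883189-116884712 and chr4:116874018-116876374 changed by 4.50 ± 0.52, adjusted p = 0.0093 and by 4.16 ± 0.52, adjusted p = 0.013, while their neighbour on chr4 stood at ranks of 5 and 11 in early-G1 and 2, 2 and 6 in mid-G1. By mean rank the best placed of this list were that gene and a U2 gene at chr11:101518909-101522853, of which neither passed (changes 1.36 ± 0.54, adjusted p = 0.21, and −0.33 ± 0.54, adjusted p = 0.78). A U2 gene at chr12:60140725-60143338 was higher (change 2.94 ± 0.46, adjusted p = 0.023). A U2 gene with Rdm1 at chr11:101487812-101491881 was lower (change −2.37 ± 0.38, adjusted p = 0.023), as were U1 genes at chr11:87235354-87239167 (change −3.54 ± 0.70, adjusted p = 0.041) and, with Tex14, at chr11:87239735-87242801 (change −3.40 ± 0.46, adjusted p = 0.016). The latter region went from 128 and 115 to 93.5, 106 and 85.7, but changed by 0.18 when ranked by summit pileup. These genes are multicopy, so the assignment of reads to 1 copy is uncertain. By summit pileup 0 of the 52 were called.

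Other lists held few called members. Junb, an immediate early transcription factor gene, was lower, with 83.5 and 90.8 in early-G1 and 56.4, 63.2 and 55.8 in mid-G1 (change −2.29 ± 0.34, adjusted p = 0.02), as 1 of 18 in its list. Mcl1 and Myc, the best placed of that list, changed by −0.01 and −0.27 (adjusted p = 0.99 and 0.68). Top2a, the mitotic topoisomerase, was lower as 1 of 31 mitotic machinery genes (change −2.05 ± 0.33, adjusted p = 0.026), while Ccnb1 and Incenp changed by 0.12 and 0.18. Among 21 erythroid and heme genes only Tfrc was called, and Tal1 changed by −0.48 ± 0.37, adjusted p = 0.52. Among 14 hematopoietic progenitor regulators Lyl1, in a region with Trmt1, was higher, with 46.9 and 53.7 and then 77.9, 86.6 and 80.7 (change 2.52 ± 0.38, adjusted p = 0.02), and Runx1 changed by −0.14.

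Of 17 p53 target genes, the stress gene Gadd45a was higher, with 38.4 and 47.8 and then 58.9, 63.7 and 61.4 (change 1.98 ± 0.42, adjusted p = 0.0498), whereas Cdkn1a and Btg2 changed by 0.03 and −0.09. Among 15 hosts of small nucleolar RNAs, Snhg3 was higher (change 1.88 ± 0.31, adjusted p = 0.026) and Nop58 lower (change −2.65 ± 0.31, adjusted p = 0.0094), and Snhg5 and Eif4a2 changed by −0.62 and 0.47. Of 45 replication-dependent histone genes in 24 regions, Hist1h1e and Hist1h2be were higher and Hist1h2bm lower (change −1.76 ± 0.32, adjusted p = 0.034), and the best placed, Hist1h1d and Hist1h4d, changed by −1.24 ± 1.07, adjusted p = 0.57 and −1.62 ± 0.73, adjusted p = 0.26. No member passed among 25 G1 cyclin, kinase and E2F-Rb genes (Cdkn1a and Ccnd2 best placed, Ccnd2 0.27), 19 heat shock and chaperone genes (Hsp90aa1 −0.12 and Hsp90ab1 0.49), 32 PolII and elongation factor genes (Polr2a −0.22 and Hexim1 −0.10) and 39 proteasome subunit genes (Psmd2 0.48 and Psmd5 0.30), of which 5, 7, 1 and 8 had an unadjusted p under 0.05, against 19.4% of all tested regions.

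CTCF and cohesin genes had 0 of 15 members called by limma (3 at an unadjusted p under 0.05, against 19.4% of all tested regions), with changes below 0 in 15 and a median of −0.62. Ctcf itself (chr8:108158975-108162001) had fold enrichments of 21.7 and 24.3 in early-G1 and 14.6, 11.3 and 13.4 in mid-G1 (change −0.91 ± 0.33, adjusted p = 0.17). Auxin acts on the protein, so this peak does not check the depletion. Smc3 and Mau2, the best placed members, changed by −0.81 ± 0.45, adjusted p = 0.36 and −0.19 ± 0.31, adjusted p = 0.78. By summit pileup 14 of the 15 changes were below 0.

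**Figure D2:**
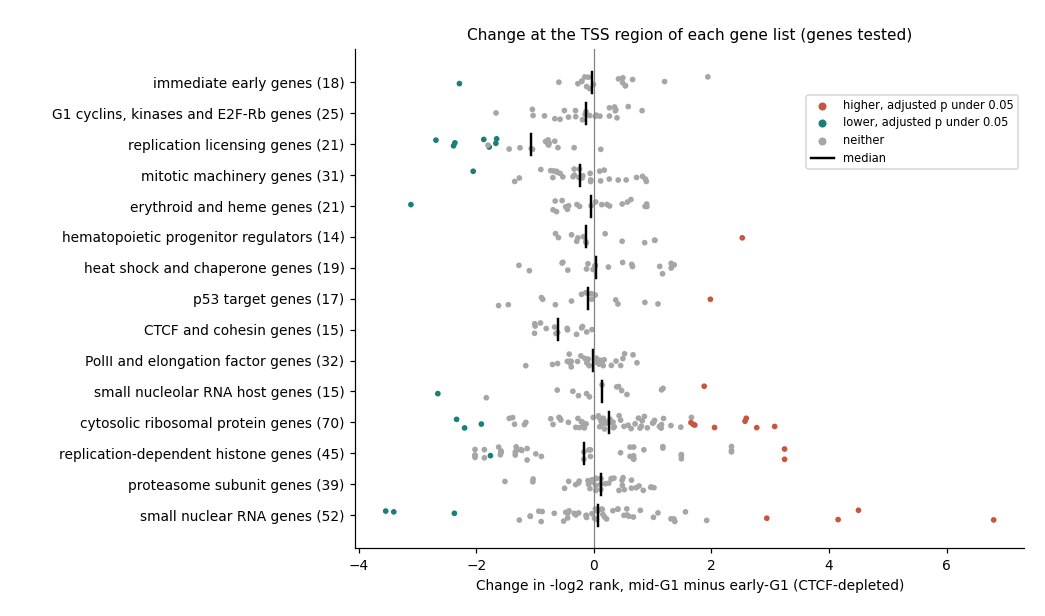
Change in −log2 rank, mid-G1 minus early-G1, at the TSS region of each tested member of 15 gene lists, with the number tested in brackets, a bar at the median and called members in colour. Replication licensing genes lie left of 0 in 20 of 21 cases with 7 called lower, and the small nuclear RNA gene at 6.80 is the largest change.

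Coverage of gene bodies was compared next, to follow PolII beyond promoters. The body ran from 500 bp after the TSS to the gene end, and the measure was log2 of its bases under a peak plus 200, centred on each library's median gene. Of 7800 protein-coding genes tested with limma, 312 were covered more in mid-G1 (4.00%) and 315 less (4.04%). Without centring, 0 and 2 were called (493 and 682 at an unadjusted p under 0.05). Uncentred coverage did not overlap between the groups in 309 of the 312 and 315 of the 315, and in 2956 of all 7800. Leaving out early-G1 replicate 1 or 2 gave 43 and 14, or 24 and 14, calls, leaving out mid-G1 replicate 1 gave 135 and 147, and leaving out mid-G1 replicate 3 gave 627 and 571.

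Genes covered less in mid-G1 were long and partly covered in early-G1. Their median length was 53.6 kb, against 23.2 kb in all genes tested and 27.8 kb in those covered more. In the 315 genes the median share of the body under peaks was 12.9% and 13.5% in early-G1 and 3.16%, 4.38% and 1.34% in mid-G1. In the 312 genes covered more it was 2.01% and 1.97%, and then 11.2%, 14.7% and 6.97%. Over all tested genes the medians were 15.3% and 16.0%, and then 14.6%, 18.5% and 8.27%, with mid-G1 replicate 3 below the other libraries.

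The calls depended on gene length. Of 1159 genes of 50 to 100 kb, 10.8% were covered less and 4.06% more, and of 409 genes over 150 kb, 2.93% were covered less and 8.56% more. Of 1856 genes under 10 kb, 0.323% were covered less and 3.23% more, and these were covered over a mean of 46.0% to 57.8% of their length in each list. With all lists cut to an equal 74672 peaks, the shares covered less were 15.3% at 50 to 100 kb and 3.64% over 150 kb, and those covered more 7.35% and 13.0%.

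Arid4a, which encodes a retinoblastoma-binding chromatin protein (chr12:72116977-72199579), was under peaks over 24.4% and 24.8% of its body in early-G1 and over 1.61%, 2.04% and 0.831% in mid-G1 (change −3.74 ± 0.23, adjusted p = 0.0019). Its TSS region changed by −0.90 (adjusted p = 0.35). The zinc finger gene Tshz1 (chr18:84181019-84255954) had 23.1% and 24.1% and then 1.19%, 1.995% and 0.317% (change −4.09 ± 0.35, adjusted p = 0.0023). Early-G1 coverage of both genes exceeded 23% in each list and mid-G1 coverage stayed under 2.1%. Pygm, the muscle glycogen phosphorylase (chr19:6384399-6398459), had 29.4% and 38.8% and was at 0 in all 3 mid-G1 lists (adjusted p = 0.0019). The histone variant gene H2afv (chr11:6327229-6344446) had 29.5% and 32.95% and then 0%, 1.38% and 0% (change −4.22 ± 0.31, adjusted p = 0.0019). Klhdc10, 4921513D23Rik and Mtmr14 changed by −3.71, −3.64 and −3.57. For none of these 7 genes was the TSS region called.

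In the other direction, the protease inhibitor gene Serpinb9d (chr13:33284828-33294998) was at 0 in both early-G1 lists and under peaks over 64.6%, 73.2% and 14.5% in mid-G1. Csf2rb2, a cytokine receptor subunit (chr15:78112947-78136052), was at 0 in early-G1 and at 24.1%, 26.6% and 4.27% in mid-G1, and its TSS region ranked higher as well (change 2.31, adjusted p = 0.023). Chrna2 and Fam89a were likewise at 0 in early-G1, and at 31.7%, 35.3% and 12.9% and at 30.3%, 27.4% and 12.7% in mid-G1. In these 4 genes replicate 3 had the lowest mid-G1 value. St6galnac1, a sialyltransferase gene (chr11:116600308-116636821), went from 1.34% and 0.511% to 17.7%, 18.7% and 18.2% (change 3.89 ± 0.38, adjusted p = 0.0038). The long chaperone gene Dnajc1 (chr2:18117281-18314457) went from 0.230% and 0.342% to 5.88%, 5.77% and 4.23% (change 3.97 ± 0.26, adjusted p = 0.0019). Spnb3 and Tnip2, an inhibitor of NF-kappaB signalling, changed by 4.01 and 3.88.

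Few members of the gene lists passed for the body. Spna1, the erythroid spectrin (0.278% and 0.396% and then 7.56%, 7.52% and 3.22%, change 3.48 ± 0.27, adjusted p = 0.0019), and the transcription factor genes Fli1 (change 1.85 ± 0.36, adjusted p = 0.026), Erg (change 1.58 ± 0.36, adjusted p = 0.04) and Klf6 (change 1.12 ± 0.26, adjusted p = 0.043) were covered more, as were the p53 target Zmat3 (change 2.23 ± 0.34, adjusted p = 0.013) and the proteasome gene Psmd6 (change 2.39 ± 0.32, adjusted p = 0.0089). The cohesin subunit gene Smc3 went from 59.5% and 50.3% to 22.2%, 30.5% and 14.6% (change −1.16 ± 0.24, adjusted p = 0.033), and the cohesin loader gene Nipbl from 11.4% and 8.75% to 3.71%, 4.93% and 1.19% (change −1.61 ± 0.38, adjusted p = 0.044). The elongation factor gene Supt6h (change −1.33 ± 0.31, adjusted p = 0.045) and Th1l, a subunit of the pausing factor NELF (change −1.79 ± 0.42, adjusted p = 0.044), were covered less too. None of the 23 replication licensing genes tested passed for the body by limma (7 at an unadjusted p under 0.05, against 25.8% of all 7800 genes), and their median change was −0.46.

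**Figure D3:**
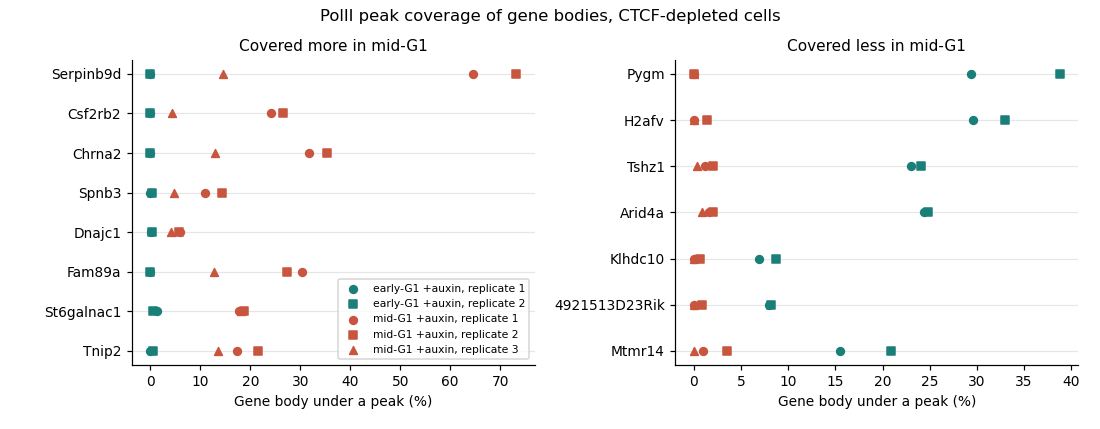
Share of the gene body under a peak, in percent, for the 8 genes with the largest gain (left) and 7 of the 8 with the largest loss (right), 1 point per list, green for early-G1 and red for mid-G1. Arid4a, Tshz1, H2afv and Pygm lie above 23% in early-G1 and below 2.1% in mid-G1, and Serpinb9d spreads from 14.5% to 73.2% across the mid-G1 lists.

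Coverage along 727 genes over 100 kb, with a TSS peak in all 5 lists, was highest near the TSS and after the gene end. In the first 5 kb it was 15.1% and 15.5% of bases in early-G1 and 15.7%, 16.2% and 12.5% in mid-G1. From 40 to 60 kb it was 3.99% and 3.71%, and then 2.62%, 3.51% and 1.18%, so that each mid-G1 list lay below both early-G1 lists. The other bins inside the gene did not separate the groups, since mid-G1 replicate 2 lay among or above the early-G1 lists: from 20 to 40 kb the values were 3.88% and 3.84%, and then 2.89%, 3.89% and 1.33%, and from 80 to 100 kb 3.70% and 3.29%, and then 2.75%, 3.73% and 1.34%. In the 10 kb after the gene it was 7.42% and 6.74%, and then 14.2%, 16.2% and 10.2%, each mid-G1 list lying above both. With 3 lists against 2 the exact two-sided permutation test has 10 arrangements and cannot go below 0.1: it gave p = 0.2 for both bins (adjusted p = 0.57 over 8 bins). In the last 10 kb before the gene end the values were 4.86% and 4.49%, and then 6.69%, 8.24% and 3.72%, which overlap.

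The gain after long genes was present with lists of equal length, at 6.47% and 5.85% in early-G1 and 12.7%, 14.1% and 10.2% in mid-G1. It was also present in the 495 genes with no other protein-coding TSS inside or shortly after them, at 5.75% and 4.99%, and then 12.6%, 14.4% and 8.76%. The part of sequencing depth in this difference was not tested.

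**Figure D4:**
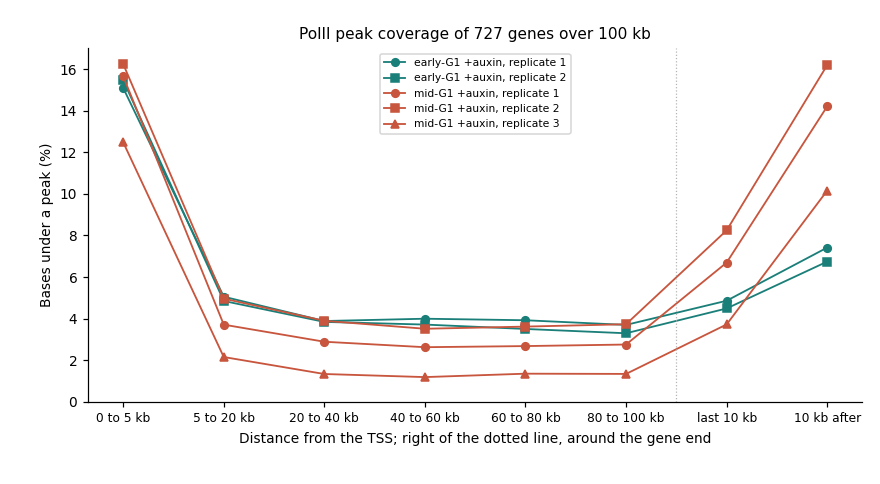
Mean share of bases under a peak, in percent, in 8 bins along 727 genes over 100 kb, 1 line per list, green for early-G1 and red for mid-G1, with bins around the gene end to the right of the dotted line. All 3 mid-G1 lists lie above both early-G1 lists in the 10 kb after the gene, and below them from 40 to 60 kb, while the lists overlap in the other 6 bins.

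Over whole lists, peak number, covered bases and median width did not separate the stages. Covered length was 57.1 and 56.8 Mb in early-G1 and 55.2, 64.0 and 39.8 Mb in mid-G1, and median width 313 and 320 bp, and then 296, 322 and 309 bp (exact permutation p = 0.8 and 0.5, and 0.8 for peak number). Intergenic peaks made up 5.74% and 5.70% of early-G1 peaks and 8.01%, 7.32% and 8.80% of mid-G1 peaks (exact permutation p = 0.1, the smallest possible, adjusted p = 0.33 over 5 classes). Peaks in the 10 kb after genes made up 12.7% in both early-G1 lists and 14.6%, 13.3% and 17.5% in mid-G1, and gene body peaks 72.4% and 72.1%, and then 68.1%, 70.5% and 61.5% (exact permutation p = 0.2 for each). Protein-coding TSS peaks overlapped between the groups, at 8.57% and 8.81%, and then 8.75%, 8.30% and 11.5%.

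Detection was compared last, as regions present at 1 stage only. There were 5933 regions (4.03% of those merged) in both early-G1 lists and in no mid-G1 list, and 2545 (1.73%) in all 3 mid-G1 lists and in no early-G1 list. These counts cannot be set against each other, since 2 lists have to hold a region in one case and 3 in the other. Without early-G1 replicate 1 or 2, when 1 list was enough, the early-G1-only count was 23064 or 23283. Without mid-G1 replicate 1, 2 or 3, when fewer lists had to lack the region, it was 8212, 10092 or 6816. The mid-G1-only count was 4610, 3998 or 8406 without mid-G1 replicate 1, 2 or 3, when 2 lists were enough, and 4428 or 4022 without early-G1 replicate 1 or 2, when only 1 list had to lack the region. Of the early-G1-only regions 87.1% lay in gene bodies, 8.49% in the 10 kb after genes and 3.20% between genes. Of the mid-G1-only regions these shares were 55.3%, 22.04% and 19.6%, against 75.6%, 10.6% and 6.86% of all merged regions. TSSs of protein-coding genes fell in 0.927% of early-G1-only, 2.59% of mid-G1-only and 6.36% of all merged regions. Early-G1-only regions in gene bodies had a median distance of 26.7 kb from the gene start, 42.2% of them between 20 and 60 kb, against 26.5% of the mid-G1-only and 35.8% of all regions in gene bodies. In the last 20% of the gene lay 21.1% of the early-G1-only and 31.6% of the mid-G1-only regions. This share was 23.2% over all regions in gene bodies and 28.9% over those present in all 5 lists. A mid-G1-only region had to be in mid-G1 replicate 3, the shortest list. Of its peaks 61.5% lay in gene bodies, against 68.1% and 70.5% in mid-G1 replicates 1 and 2. No test was made of these shares or of the part of that list in them.

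The strongest mid-G1-only regions lay outside genes. At chr19:61320400-61320908, between genes near Csf2ra, fold enrichment was 15.1, 15.7 and 14.97. At chr13:33300689-33303185, after Serpinb9d, it was 14.3, 16.9 and 9.45, at chr5:23559336-23560296, upstream of Fam126a, 15.5, 9.67 and 16.9, and at chr10:76708894-76711098, after a gene near Gm10941, 14.6, 12.9 and 11.03. Of the strongest early-G1-only regions, chr7:117272740-117273523 lay in an intron of the mitotic inhibitor kinase gene Wee1, 7291 bp after its TSS, with 10.1 and 8.38. A region at chr4:3823026-3824692, near Mos, had 8.41 and 10.48, and one at the TSS of 2810030E01Rik (chr2:17970249-17970577) had 9.06 and 9.05. None of these 7 had a fold enrichment above 17 in any list.

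**Figure D5:**
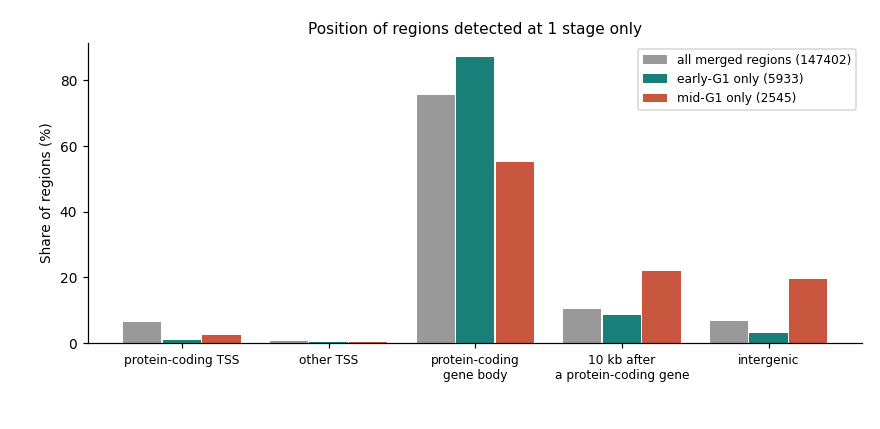
Share of regions, in percent, by position, for all 147402 merged regions (grey), the 5933 found in both early-G1 lists only (green) and the 2545 found in all 3 mid-G1 lists only (red). Early-G1-only regions are in gene bodies in 87.1% of cases, while 22.04% of mid-G1-only regions lie within 10 kb after a gene and 19.6% between genes. Mid-G1-only regions had to be in the shortest list, mid-G1 replicate 3.

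Whether the change from early-G1 to mid-G1 differed between treated and control cells was tested as an interaction over 10 libraries. Of 17006 regions detected in all of them, 0 passed limma's adjusted p of 0.05 (0%), and 675 had an unadjusted p under 0.05. The controls were called against the same inputs, so changes of the 2 conditions share them and are only set side by side. Fasn changed by 3.89 with auxin and 4.15 without, Id1 by 3.28 and 3.65, Tfrc by −3.11 and −2.50, and Clk1 by −3.57 and −1.84. At Hist1h1e with Hist1h2be the values were 3.20 and 0.07 (adjusted p = 0.95) and in the region of Rpl12 2.78 and 0.55 (adjusted p = 0.9998).

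Of the 5 regions with the lowest p in that test, 4 are given. At 2310037I24Rik (chr15:98363157-98365635) ranks with auxin went from 313.5 and 266 to 1114.5, 1013.5 and 1308.5, and without auxin from 960 and 1459.5 to 814.5, 782 and 708 (limma difference −2.61 ± 0.40, adjusted p = 0.31). At Rpl23 with 1700001P01Rik (chr11:97635491-97644874) they went from 1053 and 691.5 to 188.5, 121 and 123.5, and without auxin from 230.5 and 161.5 to 228, 178 and 176.5 (difference 2.59 ± 0.45, adjusted p = 0.48). At the histone genes Hist2h2ab, Hist2h2ac and Hist2h2be (chr3:96021789-96026358) they went from 123 and 174 to 49.5, 55 and 55, and without auxin from 39 and 21 to 80.5, 48.5 and 73.5 (difference 2.67 ± 0.48, adjusted p = 0.48). At each of these 3 the early-G1 ranks of the 2 conditions were apart, and the mid-G1 ranks closer. These regions were chosen by lowest p, so such a pattern follows partly from the choice, and it was not tested. A region near Inpp5b (chr4:124432277-124434112) differed by 2.11 ± 0.41, adjusted p = 0.63. None of these differences passed the correction.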

How the data were processed

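PolII ChIP-seq was analysed from the peak lists of 2 early-G1 and 3 mid-G1 libraries of auxin-treated cells, grouped by the labels, with 13 further lists for comparison. The labels call the samples replicates, and p-values measure the spread between them. The authors aligned reads to mm9 with Bowtie2 2.2.9, removed alignments with a mapping quality under 10 and duplicates with SAMtools 0.1.19, removed blacklisted reads with bedtools 2.27.1 and called peaks per library with MACS2 2.1.0 at a q cutoff of 0.01 over the input of the stage. The deposited ratio is the fold enrichment at the summit over local input background. The deposited −log10 p and q values and the deposited score, which is derived from q, are not effect sizes, and no read counts were used. The lowest background value of each list is given in place of depth, and is a level set by the peak caller, not a read total.

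Peaks were merged at an overlap of 1 bp. Ranks of the highest fold enrichment per region and list (ties given their mean) were taken as −log2 and tested with limma 3.58.1 in R 4.3.3, with Benjamini-Hochberg adjustment at 0.05. Coverage of gene bodies of protein-coding genes of 1 kb or more (GENCODE annotation of mm9) was tested as log2(bp + 200) for genes with a mean of 500 bp or more covered. This mean was taken over the lists of both stages together, so a gene with no peak at 1 stage could be tested. The difference between treated and control cells was an interaction over 10 libraries. Values per list were compared by exact two-sided permutation. Named promoters were the 12 tested with the largest change in each direction among called regions whose groups did not overlap. By the same rule 4 regions without a TSS and 8 genes for the body were named in each direction. Also named were the 4 strongest regions of each stage, the 5 lowest p of the interaction and the called and 2 best placed members of each gene list. Of these, 4 results are not reported here. The promoters printed were chosen among these after their values were seen. The members and lists were chosen with earlier results of these data known. The limma test of ranks between the 2 groups was checked on simulated data drawn under its own model, and the permutation test on toy values. The limma fits of gene bodies and of the interaction were not checked in this way. Alternatives covered the ranking value, filters, overlap, pseudocount, centring, trend, replicate block and left-out libraries. Python 3.11.15, numpy 2.4.6, scipy 1.17.1, pandas 2.3.3 and samtools 1.23.1 were used.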

Additional observations from a re-analysis of the deposited data

How the results depend on the processing

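Without mid-G1 replicate 3, which had the fewest peaks, the log2 difference in peak number turned to 0.037 (also the value of the replicate block over numbers 1 and 2) and that in covered bases to 0.062. Over all left-out libraries these ran from −0.23 and −0.28 upward. The difference in the share of protein-coding TSS peaks ran from −0.17 to 1.43 percentage points, that of other TSS peaks from −0.022 to 0.053, and coverage of the first 5 kb of long genes from −1.21 to 0.67, each with its sign turned without that library. Median width differed by 0.0035 (log2) with peaks of −log10 q of 5 or more. Joining peaks across 1 kb gaps left 1064 mid-G1-only and 1690 early-G1-only regions, and left-out libraries gave 3998 to 8406 and 6816 to 23283.

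Regions that ranked higher and lower numbered 111 and 37 by −log10 p, 152 and 45 by summit pileup, 475 and 481 when ranked among regions in all 5 lists, 0 and 0 by normal score (where the median of all regions was −0.10), 651 and 427 with a mean-variance trend and 1603 and 853 with missing lists ranked last. Lower regions numbered 313 with the stricter q and 381 with joined peaks. Left-out libraries gave 0 to 53 and 0 to 33. By pileup 465 of the 497 regions kept their direction, and leaving out a library cannot turn it where the groups do not overlap. By pileup Hist1h1e with Hist1h2be changed by −1.10 and Tex14 by 0.18, and the Zc3hav1 region changed by 0.092 with joined peaks. The cause was not tested.

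Genes covered more and less numbered 0 and 2 without centring, 136 and 95 with a pseudocount of 20 bp, 469 and 700 with 2000 bp, and 24 to 627 and 14 to 571 with a library left out. Covered less were 510 with a trend, and covered more 487 with lists of equal length, an alternative chosen after seeing the data, as was the choice of long genes with no other TSS. The difference between treated and control cells had 0 calls under every alternative run, with 279 to 1077 regions at an unadjusted p under 0.05.

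Replicate numbers 1 and 2 are shared by the groups, but the labels do not say that they pair the libraries. With the replicate block 21 regions ranked higher and 8 lower, and 622 genes were covered more and 536 less. Number 3 exists only in mid-G1, so the block takes up that library. Its changes are those found without mid-G1 replicate 3, and it is not a separate check. With 2 against 3 libraries the exact tests cannot pass 0.05, and peaks near the calling threshold limit what detection can show.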

Other observations

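Signal at and after Serpinb9d, described together after its values were seen, was present in mid-G1 and nearly absent in early-G1. The gene body had no peak in either early-G1 list and 64.6%, 73.2% and 14.5% of its bases under peaks in mid-G1. A region beginning beyond the gene, with its summit 17322 bp after the TSS, was absent from both early-G1 lists and had fold enrichments of 14.3, 16.9 and 9.45 in mid-G1. The next named region, with its summit 20546 bp after the TSS, moved from ranks of 72917 and 72621 to 5421.5, 5629 and 8526.5. Peaks carry no strand, so these signals cannot be assigned to 1 transcript.

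In values given without a test, the 3 neighbouring U5 genes of chr4 differed in early-G1 and less so in mid-G1. Their fold enrichments were 116 and 107, 73.0 and 51.3, and 39.7 and 23.5 in early-G1. In mid-G1 they were 129, 127 and 117, then 121, 109 and 105, and then 84.7, 73.7 and 76.0. Reads of near-identical copies cannot be told apart, and values of single copies are uncertain.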
